A study of Neurospora crassa with 12 samples.

Results

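The genes *suc-2* (NCU07819), *mfs-29* (NCU07820) and *dam-2* (NCU07821) lie next to each other on chromosome III of *Neurospora crassa*, a filamentous fungus. They are 3 of the 9758 genes listed for each library, and were selected on their levels in these same libraries, so their own levels are described here without a test. RNA was sequenced from mycelia of 2 strains in 2 media, with 3 cultures per group. The groups were starved *cys-3-* cells (labelled Δcys-3, 4 h without a sulfur source), starved wild-type cells (strain FGSC 4200, 4 h without a sulfur source), *cys-3-* cells after 4 h in 24 μM sulfate, and wild-type cells after 4 h in 24 μM sulfate. All 4 groups had first grown for 24 h in Vogel's minimal medium with 500 mg/L methionine, and were washed before the change of medium. The mutant is a single strain in which a hygromycin resistance cassette replaces the start of *cys-3*, and the study purified it as a homokaryon from the *N. crassa* deletion collection. Each value below is an FPKM, a read count scaled by transcript length and by library size, so levels of different genes are given per length.

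CYS-3 is the bZIP transcription factor that turns on sulfur acquisition genes in *N. crassa* when sulfur is scarce. Under sulfur-replete conditions an SCF ubiquitin ligase that contains SCON-2 limits it. In fungi that are short of sulfate, sulfonates such as taurine can serve instead. A taurine dioxygenase uses iron and 2-oxoglutarate to split taurine, which releases sulfite, and sulfite reductase converts the sulfite to sulfide for cysteine synthesis. *suc-2* is annotated as such a 2-oxoglutarate-dependent taurine dioxygenase. *mfs-29* is annotated as a pantothenate transporter of the major facilitator superfamily, and pantothenate is the vitamin from which cells build coenzyme A. *dam-2* is annotated as a dimethylaniline monooxygenase, a name given to flavin-containing enzymes that oxidise nitrogen or sulfur atoms. These roles rest on annotation, and no substrate was measured here.

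Implied sequencing depth was 7.33 to 11.2 megareads per library, worked out from the width of each deposited confidence interval. These depths are rough, because for some abundant genes the implied reads did not follow the FPKM. NCU07829 had 2067 to 2184 implied reads at 1365 to 1836 FPKM, whereas *crp-2* (NCU07830) had 12762 to 22463 at 1315 to 1660 FPKM. Transcripts of *cys-3* itself (NCU03536), which the mutation targets, ranged between 71.1 and 73.7 FPKM in starved *cys-3-* cells, against 132 to 162 FPKM in starved wild-type cells. With sulfate it had 74.9 to 79.7 FPKM in *cys-3-* cells, against 58.7 to 66.6 FPKM in wild-type cells. The deletion removes only part of *cys-3* and the files give 1 value per gene, so this level does not check the strain labels. Replicate 1 of starved wild type stood apart for starvation-induced genes, as described with its values below.

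On the NC12 assembly *suc-2* extends from 976728 to 978170, *mfs-29* from 979196 to 980891 and *dam-2* from 981619 to 983387. The 3 loci span 6660 bp, with 1025 bp between *suc-2* and *mfs-29* and 727 bp between *mfs-29* and *dam-2*. No other listed locus overlaps this span, so no read had to be divided between one of the 3 genes and an overlapping gene.

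*suc-2* had the highest level of the 3 genes in starved wild-type cells and lay near 0 in the other 3 groups. It had 0.234, 0.198 and 0.114 FPKM in replicates 1, 2 and 3 of starved *cys-3-* cells, against 60.8, 174 and 215 FPKM in starved wild-type cells. Replicates 1, 2 and 3 from 24 μM sulfate held 0.130, 0.0714 and 0.0684 FPKM in *cys-3-* cells, against 0.135, 0.207 and 0.241 FPKM in wild-type cells. All 3 starved wild-type libraries therefore lay far above the other 9, and the 9 rested on 1 to 5 reads each. Starved wild-type cells averaged 149.9 ± 79.9 FPKM (SD, n = 3) and wild-type cells in 24 μM sulfate 0.194 ± 0.0542 FPKM (SD, n = 3), a ratio of 771. Because the 24 μM sulfate level rests on 11 reads in all, its exact Poisson 95% interval puts the ratio between 431 and 1545, counting error only. The level of *suc-2* in starved *cys-3-* cells was 0.121% of that in starved wild type (95% interval 0.0555% to 0.231%, from 9 reads).

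**Figure D1:**
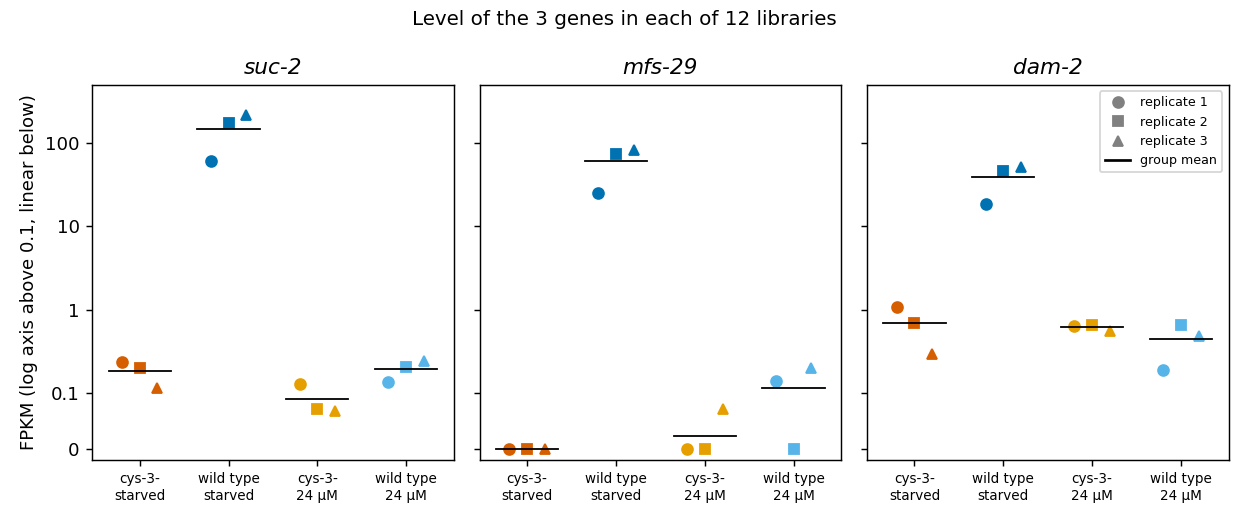
FPKM of *suc-2*, *mfs-29* and *dam-2* in each of the 12 libraries, 1 panel per gene, on an axis that is logarithmic above 0.1 and linear below it. Points are libraries (circle, square and triangle for replicates 1, 2 and 3) and bars are group means. The 3 starved wild-type points lie above all other points in each panel, at 60.8 to 215 FPKM for *suc-2*, and replicate 1 is the lowest of the 3 for every gene.

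*mfs-29* had the fewest reads outside starved wild type. It was at 0 reads in all 3 starved *cys-3-* libraries, against 24.9, 74.99 and 82.6 FPKM in replicates 1, 2 and 3 of starved wild-type cells. The same replicates from 24 μM sulfate had 0, 0 and 0.0710 FPKM in *cys-3-* cells, against 0.140, 0 and 0.201 FPKM in wild-type cells. The *cys-3-* libraries from that medium held 1 read in all and the wild-type libraries 7, and their values overlap at 0. The mean of starved wild-type cells was 60.9 ± 31.3 FPKM and that of wild-type cells in 24 μM sulfate 0.114 ± 0.103 FPKM (SD, n = 3 each), which is a ratio of 535 (95% Poisson interval 260 to 1332). That ratio rested on a few reads, and leaving out single wild-type libraries of the 24 μM sulfate group changed it to 870 (replicate 3) and 357 (replicate 2). For the 0 reads in starved *cys-3-* cells, the level that 3 reads over the group would give, 0.0628 FPKM, was taken. The starved wild-type mean of *mfs-29* was 970-fold above it, a lower bound for counting error only. The bound does not cover the spread of the starved wild-type libraries, from 24.9 to 82.6 FPKM.

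*dam-2* was the least abundant of the 3 genes in starved wild type and the most abundant of them in the other groups. Its level was 1.08, 0.695 and 0.293 FPKM in replicates 1, 2 and 3 of starved *cys-3-* cells, against 18.8, 46.8 and 52.1 FPKM in starved wild-type cells. With 24 μM sulfate the levels were 0.631, 0.662 and 0.551 FPKM in *cys-3-* cells, against 0.190, 0.657 and 0.485 FPKM in wild-type cells. The 3 groups at the low level overlapped each other, with 46 reads in starved *cys-3-* cells, 37 in *cys-3-* cells in 24 μM sulfate and 33 in wild-type cells in 24 μM sulfate, so their order is not resolved. The mean was 39.2 ± 17.9 FPKM in starved wild type and 0.444 ± 0.236 FPKM in wild type in 24 μM sulfate (SD, n = 3 each), a ratio of 88.3 (95% Poisson interval 62.9 to 128). In starved *cys-3-* cells *dam-2* stood at 1.76% of its starved wild-type level (95% interval 1.29% to 2.35%). RNA came from whole mycelium, in which fewer cells with a transcript and less of it per cell cannot be told apart.

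For each of the 3 genes the other 3 groups followed starved wild type at a large distance, and no pair of neighbours in that lower order was separated clearly. For *suc-2* the wild-type mean in 24 μM sulfate, 0.194 FPKM, and the starved *cys-3-* mean, 0.182 FPKM, differed by less than the SD of either group. The *cys-3-* libraries in 24 μM sulfate held 4 reads of *suc-2* in all, a mean of 0.0900 FPKM, and the highest of them, 0.130 FPKM, lay just under the lowest wild-type library of that medium, 0.135 FPKM. A difference between strains in 24 μM sulfate, or between media in *cys-3-* cells, was not detectable for *suc-2* or *mfs-29* at this depth.

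For reference, wild-type starvation gave 157 calls among the 5035 genes tested, which is 3.12%, and 140 of them were higher in starved cells (2.78%). A call required an adjusted p below 0.05 in limma, a ratio of group mean FPKM of at least 2 and a mean of at least 10 FPKM in a group compared. Between the starved strains 181 genes were called (3.59%), of which 139 were lower in *cys-3-* cells (2.76%). All 3 genes were among the 140 and among the 139, which follows from how they were selected and is not read further. Between the strains in 24 μM sulfate 8 genes were called (0.159%), in *cys-3-* cells 1 gene was called between the media (0.0199%), and 160 genes responded differently to starvation in the 2 strains (3.18%). Without replicate 1 of starved wild type the counts of genes higher in starved wild type and lower in starved *cys-3-* cells were 163 and 158.

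The proportions among the 3 genes were similar in the 3 starved wild-type libraries although their levels were not. *mfs-29* had 0.410, 0.431 and 0.384 times the FPKM of *suc-2* in replicates 1, 2 and 3. *dam-2* had 0.309, 0.269 and 0.242 times the FPKM of *suc-2*, and 0.753, 0.624 and 0.630 times that of *mfs-29*. The sum of the 3 genes was 105 FPKM in replicate 1, 296 FPKM in replicate 2 and 349.7 FPKM in replicate 3. Levels were thus ordered along the chromosome from *suc-2* (highest) to *mfs-29* to *dam-2* (lowest) in each of these libraries. *suc-2* was the 1313th most abundant of 9754 genes in replicate 1, the 496th in replicate 2 and the 423rd in replicate 3.

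The low value of replicate 1 was shared by most induced genes, and was more marked for these 3 than for most. Over the 140 genes called higher in starved wild type, the FPKM of replicate 1 had a median of 0.695 times the mean of replicates 2 and 3 (quartiles 0.584 and 0.825), and the ratio was below 1 for 138 of them. Over all 5035 genes tested the median was 0.979 (quartiles 0.900 and 1.07), and the ratio was below 1 for 2869 of them. The ratio was 0.313 for *suc-2*, 0.316 for *mfs-29* and 0.380 for *dam-2*, which put them in places 3, 4 and 10 from the lowest of the 140. For *cys-3* itself it was 0.857. A ratio below 0.5 was found for 24 of the 140 genes and for 26 of all 5035 genes tested. Among other induced dioxygenase genes the ratio was 0.331 for *tdo-3* (place 5), 0.453 for *tdo-4*, 0.559 for *tdo-5* and 0.636 for *tdo-2*. The coefficient of variation over the 3 libraries was 53.3% for *suc-2*, 51.5% for *mfs-29* and 45.6% for *dam-2*, against a median of 22.3% over the 140 genes. Replicate 1 had an implied 8.64 megareads, the fewest of the 3 libraries of its group, and the part of depth or of the culture in its lower values was not tested.

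**Figure D2:**
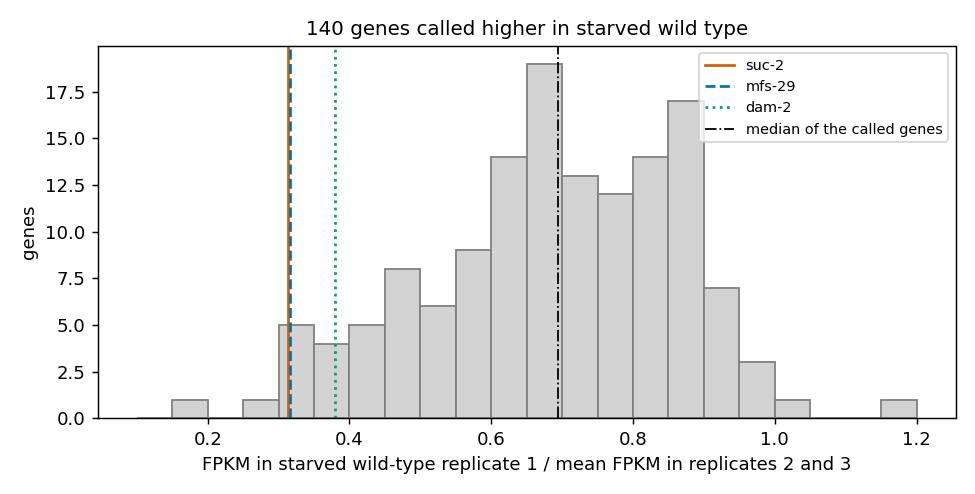
Histogram of the 140 genes called higher in starved wild type by the ratio of FPKM in replicate 1 to the mean FPKM of replicates 2 and 3 (x axis, no unit; y axis, number of genes). Vertical lines mark *suc-2* (0.313), *mfs-29* (0.316), *dam-2* (0.380) and the median of the called genes (0.695), and the 3 genes sit in the lower tail.

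The pattern of the 3 genes was not seen in the loci next to the span on either side. Since the 3 were selected on their levels in these libraries, where the pattern stops is tied to that selection and is given as a description. The locus before *suc-2*, NCU07818, ends 58 bp away and had 4.79, 4.39 and 3.15 FPKM in starved *cys-3-* cells, against 3.13, 1.37 and 2.60 FPKM in starved wild-type cells. The levels of NCU07818 in 24 μM sulfate were 1.94, 3.36 and 3.95 FPKM in *cys-3-* cells, against 2.39, 4.18 and 2.37 FPKM in wild-type cells. It thus stayed under the minimum of 10 FPKM for testing, with overlapping values in the 2 media in wild type, while its neighbour *suc-2* differed 771-fold in mean.

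On the other side NCU07822, a hypothetical protein gene, begins 423 bp after *dam-2*. It had 4.82, 4.28 and 3.79 FPKM in starved *cys-3-* cells, against 2.56, 2.91 and 2.73 FPKM in starved wild-type cells. With sulfate NCU07822 had 4.33, 3.85 and 3.82 FPKM in *cys-3-* cells, against 3.52, 3.25 and 2.77 FPKM in wild-type cells. Its starved wild-type libraries were among the lowest of the 12, the opposite order to *dam-2*. The next locus, NCU07823, had 1.45, 1.37 and 1.30 FPKM in starved *cys-3-* cells, against 0.989, 0.494 and 0.865 FPKM in starved wild-type cells. For NCU07823 the 24 μM sulfate libraries held 1.21, 2.19 and 1.27 FPKM in *cys-3-* cells, against 1.28, 0.850 and 1.28 FPKM in wild-type cells. Neither NCU07822 nor NCU07823 reached the minimum for testing.

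The second locus before *suc-2* is *ncw-3* (NCU07817), named as a non-anchored cell wall protein gene and by far more abundant than its neighbours. It had 587, 712 and 751 FPKM in starved *cys-3-* cells, against 430, 349 and 403 FPKM in starved wild-type cells. The 24 μM sulfate libraries had 617, 951 and 614 FPKM of *ncw-3* in *cys-3-* cells, against 689, 777 and 460 FPKM in wild-type cells. Its starved wild-type libraries were the lowest of the 12. The log2 difference between starved wild type and wild type in 24 μM sulfate was -0.67 (SE 0.20, limma adjusted p = 0.0302), and that between the starved strains was 0.79 (SE 0.20, limma adjusted p = 0.00905). The adjusted p in wild-type starvation rose above 0.05 in some of the alternative settings, and that between the starved strains did not. Both ratios of means, 0.614 and 1.73, were short of 2-fold, so *ncw-3* was not called, and both differences ran opposite to those of the 3 genes.

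Of the 10 loci on each side, 12 of 20 were abundant enough to test, and limma called none of them in any of the 5 contrasts. In these contrasts 0.0199% to 3.59% of all genes tested were called, so the lack of a call among 12 loci is not read further. In wild-type starvation the log2 differences of the 12 loci ranged from -0.67 to 0.13 (median -0.08, against -0.04 over all genes tested). Only 1 of them, *ncw-3*, had an unadjusted and an adjusted p below 0.05, against 1806 and 1160 of all 5035 genes tested. Between the starved strains the 12 loci ranged from -0.23 to 0.79 (median 0.13, against -0.01 over all genes tested). An unadjusted p below 0.05 was found for 8 and an adjusted p below 0.05 for 6, without reaching 2-fold. Of all 5035 genes tested, 2401 and 1905 passed the same limits, so such p-values were common and these counts are not read as a trait of the region. Among the 6 flanking loci, those on the left were NCU07815 at 0.65 (limma adjusted p = 0.00438), *ncw-3*, NCU05732 and *acr-2*, all higher in *cys-3-* cells. Those on the right were NCU07826 and NCU07829, both lower. NCU07829 (limma adjusted p = 0.0489) shares 948 bp with the neighbouring locus NCU07828, and reads were not separated by strand. In 24 μM sulfate NCU07815 and *acr-2* were also higher in *cys-3-* cells, at 0.66 and 0.32 (limma unadjusted p = 6.2e-04 and 0.00382, adjusted p = 0.119 and 0.22). There *ncw-3* was at 0.18, NCU05732 at 0.11, and NCU07826 and NCU07829 at -0.07. The unadjusted p was below 0.05 for 3 of the 12 loci between the strains in 24 μM sulfate, for 3 between the media in *cys-3-* cells and for 0 in the interaction, and the adjusted p for none. For all 5035 genes tested, the unadjusted counts in the same order were 829, 851 and 1393, and the adjusted counts 12, 21 and 698. Large stretches without a listed locus, of 130263 and 151473 bp, interrupt the left side beyond NCU07815. With no FPKM minimum, 1 untested flanking locus, NCU05735, passed the call between the starved strains at a log2 difference of 1.02.

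**Figure D3:**
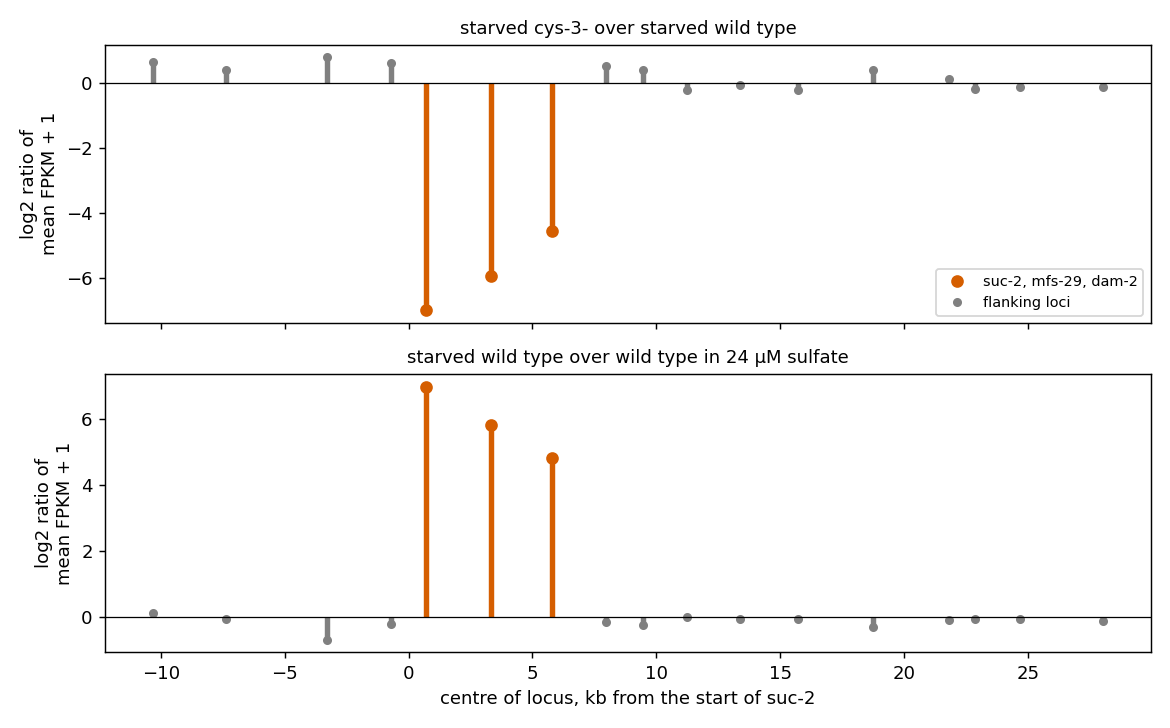
Log2 ratio of group mean FPKM + 1 for the 3 genes (orange) and the 14 nearest plotted flanking loci (grey, 4 before and 10 after) against the distance of each locus centre from the start of *suc-2* in kb. The upper panel sets starved *cys-3-* cells against starved wild type and the lower panel starved wild type against wild type in 24 μM sulfate. The 3 genes reach -7.00, -5.95 and -4.57 above and 6.98, 5.80 and 4.80 below, while flanking loci stay between -0.22 and 0.79 above and between -0.70 and 0.12 below.

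Runs of neighbouring induced genes were then counted over the whole genome, as a description. Among the 140 genes called higher in starved wild type, 2 runs held 3 or more neighbours, and 9 runs held 2. One run is that of *suc-2*, *mfs-29* and *dam-2*. The other held 6 genes on chromosome VII, from NCU05883 to NCU05888 over 15909 bp, with starved wild-type means of 50.2 to 275 FPKM. In that run, NCU05883 shares 1463 bp with the neighbouring locus NCU05882 and reads were not separated by strand. The 3 genes of chromosome III averaged 39.2 to 149.9 FPKM in the same libraries.

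The genes whose profile over the 12 libraries was most like that of the 3 were looked up among the 5034 others tested. Likeness was taken as profile overlap, the sum over libraries of the smaller of both genes' shares of their own summed FPKM, which is 100% for proportional profiles. *suc-2* and *mfs-29* overlapped by 97.3%, *mfs-29* and *dam-2* by 94.3%, and *suc-2* and *dam-2* by 94.2%. Each gene's 5 closest genes were the other 2 and the same 3 further genes, NCU05886, NCU05156 and NCU07928. For *dam-2*, NCU05886, NCU05156 and NCU07928 all ranked above *mfs-29* and *suc-2*. NCU05886, annotated as an MFS transporter, overlapped by 95.2% with *suc-2*, 95.2% with *mfs-29* and 95.8% with *dam-2*, and it lies within the run of 6 genes on chromosome VII. NCU05156 on chromosome VI overlapped by 93.4%, 93.4% and 95.6%, and NCU07928 on chromosome IV by 93.0%, 93.3% and 94.7% with *suc-2*, *mfs-29* and *dam-2*. Both of these are annotated as hypothetical proteins. The median overlap of *suc-2* with the other genes called higher in starved wild type was 54.7%, and with all genes tested 24.9%. An overlap of at least 90% was reached with 10 genes by *suc-2*, 14 by *mfs-29* and 19 by *dam-2*, counting the other members. All these profiles share the same 12 libraries, and starved wild type holds 99.7%, 99.8% and 95.7% of the summed FPKM of *suc-2*, *mfs-29* and *dam-2*, so the overlap mostly compares the 3 starved wild-type libraries.

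NCU05886 had 0.0716, 0.245 and 0.139 FPKM in starved *cys-3-* cells, against 26.8, 56.7 and 67.2 FPKM in starved wild-type cells. Libraries from 24 μM sulfate had 0.0800, 0 and 0.330 FPKM in *cys-3-* cells, against 0.211, 0.251 and 0 FPKM in wild-type cells. As for the 3 genes, replicate 1 was the lowest starved wild-type library, and the ratio of replicate 1 to the mean of replicates 2 and 3 was 0.433.

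The genes that belong with *suc-2* in the use of taurine were described from a list of 11, made up of other dioxygenases, decarboxylases and sulfite reductase genes. Of these, 9 were tested. In wild-type starvation 6 of the 9 were called higher and none lower, against 2.78% of all genes tested called higher. Their median log2 difference was 1.81, against -0.04 over all genes tested. Between the starved strains 7 of the 9 were called lower in *cys-3-* cells and none higher, against 2.76% of all genes tested called lower. Their median log2 difference was -3.12, against -0.01 over all genes tested. The study drew attention to many of these genes on the same libraries, so the counts are not independent evidence of a direction.

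4 of the other dioxygenase genes, *tdo-2* to *tdo-5*, had, like *suc-2*, their highest level in starved wild type. *tdo-4* (NCU07610) averaged 0.529 ± 0.113 FPKM in starved *cys-3-* cells and 947 ± 372 FPKM in starved wild-type cells (SD, n = 3 each). The averages in 24 μM sulfate were 0.933 ± 0.905 FPKM in *cys-3-* cells and 0.910 ± 0.608 FPKM in wild-type cells (SD, n = 3 each). The starved wild-type levels of *tdo-2* (NCU01057), *tdo-5* (NCU09800) and *tdo-3* (NCU02196) were 693 ± 186, 448 ± 138 and 177 ± 91.3 FPKM (SD, n = 3). *suc-2*, at 149.9 FPKM, was thus the least abundant of the 5 induced dioxygenase genes by mean, although its libraries overlapped those of *tdo-3*. In wild-type cells in 24 μM sulfate *tdo-5* had 7.69 ± 1.40 FPKM and *tdo-3* 2.39 ± 0.132 FPKM (SD, n = 3), whereas *suc-2* had the lowest level of the 5.

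Log2 differences between the starved strains were -9.19 for *tdo-4* (SE 0.35, limma adjusted p = 1.9e-09), -9.16 for *tdo-2*, -6.63 for *tdo-5* and -5.67 for *tdo-3*, on the scale of log2(FPKM + 1), which understates changes of low genes. The last 2 dioxygenases did not follow. *tdo-1* (NCU06964) had 2 reads in a single library, replicate 3 of wild type in 24 μM sulfate, and 0 reads in the other libraries. *xdh-2* (NCU09738), annotated as a xanthine dioxygenase, averaged 24.0 ± 0.600 FPKM in starved *cys-3-* cells and 20.9 ± 1.69 FPKM in starved wild-type cells, and 20.4 ± 2.50 FPKM in *cys-3-* cells and 17.6 ± 0.545 FPKM in wild-type cells in 24 μM sulfate (SD, n = 3 each). Its log2 difference in wild-type starvation, 0.23 (SE 0.09), did not pass the test (limma adjusted p = 0.0703).

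**Figure D4:**
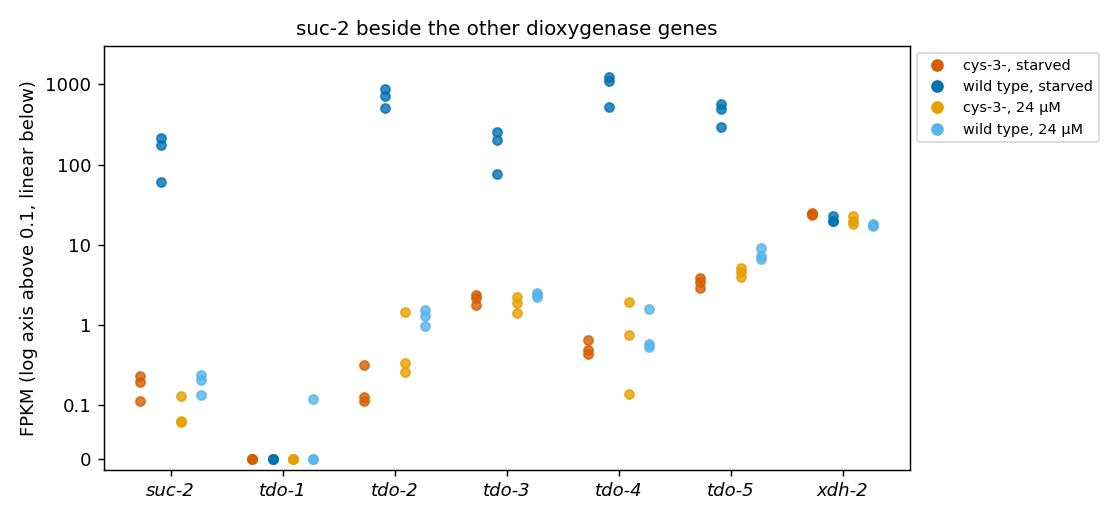
FPKM of *suc-2* and 6 other dioxygenase genes in every library, by group (colour), on an axis that is logarithmic above 0.1 and linear below it. Starved wild-type points stand far above the other groups for *suc-2* and *tdo-2* to *tdo-5*, while *xdh-2* stays between 17.0 and 24.6 FPKM in all groups and *tdo-1* is at or near 0.

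Sulfite reductase, which takes up the product of the dioxygenases, is encoded by *cys-2* (NCU04077) and *cys-4* (NCU05238). *cys-2* averaged 15.2 ± 1.69 FPKM in starved *cys-3-* cells and 141 ± 21.5 FPKM in starved wild-type cells, and 15.4 ± 3.91 FPKM in *cys-3-* cells and 63.3 ± 18.3 FPKM in wild-type cells in 24 μM sulfate (SD, n = 3 each). Unlike the 3 genes of chromosome III, *cys-2* was well expressed in wild type in 24 μM sulfate, and was called lower in *cys-3-* cells in that medium too (log2 difference -1.97, SE 0.20, limma adjusted p = 2.7e-04). *cys-4* averaged 42.4 ± 1.81 FPKM in starved *cys-3-* cells and 105 ± 11.1 FPKM in starved wild-type cells (SD, n = 3 each) and was called lower in the mutant (log2 difference -1.29, SE 0.11, limma adjusted p = 2.3e-06). In 24 μM sulfate *cys-4* averaged 45.6 ± 1.54 FPKM in *cys-3-* cells and 69.2 ± 11.4 FPKM in wild-type cells (SD, n = 3 each). That log2 difference, -0.58 (SE 0.11, limma adjusted p = 0.0506), was not called. In wild-type starvation *cys-4* rose with a ratio of 1.52 (log2 difference 0.60, SE 0.11, limma adjusted p = 0.00163). This ratio was short of 2-fold, and *cys-4* was not called.

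The 3 decarboxylase genes are annotated as glutamate decarboxylases, and relatives of this family act on cysteine sulfinic acid, a precursor of taurine in animals. *gdc-3* (NCU06112) averaged 12.6 ± 0.522 FPKM in starved *cys-3-* cells and 47.3 ± 15.6 FPKM in starved wild-type cells (SD, n = 3 each), a log2 difference of -1.79 (SE 0.18, limma adjusted p = 1.6e-05). *gdc-2* (NCU06803), at 6.86 ± 1.44 FPKM in starved wild type and 6.49 ± 1.52 FPKM in wild type in 24 μM sulfate (SD, n = 3 each), was not called in any contrast. *gdc-1* (NCU00678) stayed between 0.737 and 1.55 FPKM in the 12 libraries, under the minimum for testing.

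The last group is the pantothenate route, which *mfs-29* is annotated to supply. Of 4 genes named or annotated for pantothenate, 3 were tested. *dpr-1* (NCU04832), annotated as the reductase that makes pantoate, averaged 51.8 ± 2.41 FPKM in starved wild type and 22.7 ± 4.73 FPKM in wild type in 24 μM sulfate (SD, n = 3 each), and was called higher (log2 difference 1.17, SE 0.11, limma adjusted p = 1.3e-05). Its level in starved *cys-3-* cells, 28.6 ± 1.46 FPKM (SD, n = 3), was 0.551 times that in starved wild type, short of 2-fold (limma adjusted p = 1.9e-04). *dpr-1* was annotated from a list that the study drew up on these libraries, so its rise was part of how it was found. *pan-2* (NCU10048) had 11.5 ± 2.74 FPKM in starved wild type and 12.6 ± 2.34 FPKM in wild type in 24 μM sulfate, and *pan-4* (NCU08661) 11.3 ± 0.928 and 10.2 ± 1.71 FPKM in the same groups (SD, n = 3 each). Neither was called in any contrast. In starved *cys-3-* cells *pan-4* was at 0.689 times its starved wild-type level, short of 2-fold (limma adjusted p = 0.00813). The same ratio was 0.987 for *pan-2* (limma adjusted p = 0.992). *pan-3* (NCU07836) averaged 1.72 ± 0.107 FPKM in starved wild type and 2.42 ± 0.403 FPKM in wild type in 24 μM sulfate (SD, n = 3 each), under the minimum for testing.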

How the data were processed

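RNA was measured in 12 libraries, 3 per strain and medium, grouped by the sample labels. The authors read poly(A) RNA as 90-bp single-end, unstranded reads and aligned them with HISAT2 (version 2.0.5 in the methods, 2.1.0 in the submitters' processing notes) to genome version 12. The deposited FPKM values and their confidence bounds were computed by the authors with Cufflinks 2.2.1. Replicates were independent cultures. The read number was recovered here from the bounds, as (2F/(H - F)) squared for FPKM F and upper bound H. Of the 16468 estimates of at most 20 reads, 77.3% came within 0.05 of an integer. This check did not cover larger estimates, some of which did not follow the FPKM, so the sums per library are rough. The FPKM were fitted on the scale of log2(FPKM + 1) with limma 3.58.1 in R 4.3.3, with 1 mean per group, a variance trend and Benjamini-Hochberg adjustment over 5035 genes whose mean reached 10 FPKM in some group. An interaction call required a 2-fold difference between the strains' starvation ratios of mean FPKM + 1. The 4 genes with a failed status in a library were left out. Tables and figures used pandas 2.3.3, numpy 2.4.6, scipy 1.17.1 and matplotlib 3.10.9, and the fit was tested on simulated data. Intervals and floors (3 reads) cover counting error only.

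The members and lists were chosen with earlier results of these data known. Genes were named by rule: the 3 members, the nearest 2 loci on each side and any called within 10, the taurine and pantothenate lists, and the 5 closest profiles. *pan-3* and *pan-4* were added by symbol after the data were seen. The rule for relatives of *dam-2* and *mfs-29* took only genes annotated with the exact words dimethylaniline monooxygenase, flavin-containing monooxygenase or pantothenate transporter, and the annotations used here held no other such gene. These annotations covered only part of the genes, so other such genes may exist in the genome. Genes annotated as other kinds of monooxygenase were not taken up. Names and chromosomes came from RefSeq (NC12), in which 9757 of 9758 genes matched, 99.9% of them with the same coordinates. Alternatives were a pseudocount of 0.1, FPKM minima of 1 or none, upper-quartile scaling, ratios from log2 means, mean FPKM + 1 or medians, a fit of only the groups compared, a replicate block, no variance trend and leaving out each library. Sequences and DNA binding data were not used here.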

Additional observations from a re-analysis of the deposited data

Results flagged for a closer look

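The response to starvation was called different between the strains for 6 genes of the taurine list, by the interaction in limma over all 12 libraries. The log2 response of *cys-3-* cells minus that of wild-type cells was -8.67 for *tdo-2* (limma adjusted p = 2.7e-08), -5.40 for *tdo-3* (adjusted p = 7.7e-06), -9.14 for *tdo-4* (adjusted p = 1.5e-07) and -5.98 for *tdo-5* (adjusted p = 4.6e-08). It was -1.67 for *gdc-3* (limma adjusted p = 0.00107) and -1.16 for *cys-2* (limma adjusted p = 0.0158), and for *cys-2* the call was lost without replicate 3 of *cys-3-* in 24 μM sulfate, at -0.97 (adjusted p = 0.03), and with no FPKM minimum (adjusted p = 0.069). For *cys-4* the interaction was -0.71 (limma adjusted p = 0.00873), short of 2-fold and not called. None of the 12 flanking loci tested was called in that contrast, in which 3.18% of all genes tested were called.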

How the results depend on the processing

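The 43 differences of flanking genes and relatives that were recomputed kept their direction and their side of the call in 836 of 847 alternative values. The interaction of *cys-2* lost its call in 2, given above. The other 9 turned sign without ever being called. They belong to *acr-2* in wild-type starvation (0.03 on the log2 scale, from -0.05 to 0.09 with each library left out), *gdc-2* in wild-type starvation (0.07, from -0.04 to 0.23), *pan-2* in wild-type starvation (-0.14, from -0.28 to 0.04) and *pan-2* between the starved strains (-0.00, from -0.18 to 0.14, and 0.04 with upper-quartile scaling). Adding 1 to the mean FPKM lowered the ratio of starved wild type over wild type in 24 μM sulfate to 126 for *suc-2*, 55.5 for *mfs-29* and 27.8 for *dam-2*. It raised the level in starved *cys-3-* cells to 0.783%, 1.62% and 4.20% of that in starved wild type, since the added 1 exceeds the low group means of all 3 genes. With each library left out the wild-type ratios ranged from 604 to 1001 for *suc-2*, 357 to 870 for *mfs-29* and 68.7 to 116 for *dam-2*, and the percentages from 0.0936 to 0.155 for *suc-2*, 0.0796 to 0.159 for *mfs-29* (a bound, since it was at 0 reads) and 1.26 to 2.26 for *dam-2*.

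With no FPKM minimum 285 genes were called between the starved strains, against 181. Leaving out each library gave 5 to 37 calls between the strains in 24 μM sulfate, against 8, with 37 without replicate 2 and 5 without replicate 3 of wild type in that medium, and 0 to 10 between the media in *cys-3-* cells, against 1. The count in *cys-3-* cells was 10 without replicate 3 of *cys-3-* in 24 μM sulfate. It was 0 with an FPKM minimum of 1, with ratios from log2 means, with the replicate block and with no variance trend, and over all 11 settings with 0 calls limma gave 461 to 1152 genes with an unadjusted p below 0.05. With the replicate block the counts were 157 in wild-type starvation, 182 between the starved strains, 8 in 24 μM sulfate and 156 for the interaction. Same-numbered samples correlated from -0.507 to 0.449 in their deviations from group means. Between the strains in 24 μM sulfate the correlations were all positive, at 0.235, 0.449 and 0.075, and in the other comparisons mostly negative. The numbers were not taken to pair the samples, and the replicate block was kept as an alternative. At an implied 7.33 to 11.2 megareads, the low levels of the 3 genes rest on a few reads, and differences among the low groups cannot be resolved.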
